A study of Rattus norvegicus with 6 samples.

Results

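Glycine conjugation joins aromatic and medium-chain acids to glycine, and 9 of its genes were followed in rat renal cortex after o-anthranilic acid. They were chosen by name, with earlier results of these data known. They were 4 acyl-CoA synthetases (Acsm1, Acsm2, Acsm3 and Acsm5) and 3 glycine N-acyltransferases (Glyat, Glyatl1 and Glyatl2). The other 2 were enzymes of glycine supply (Shmt1 and Gldc). Probes were found for 7 of these 9 genes among 15277 gene symbols on the array. The 7 genes had 11 probes, and all 11 were well above background on all 6 arrays. Shmt1 and Gldc had no probe whose accession matched the naming table, so they are not analysed here.

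The animals were male Sprague-Dawley rats, an outbred stock, bought at 5 weeks of age. The vehicle group of 3 rats received corn oil for 4 weeks, and the treated group of 3 rats received 1000 mg/kg/day of o-anthranilic acid over the same time. Both groups ate a basal diet. Each animal gave 1 single-colour array of total RNA from renal cortex, a mixed tissue in which proximal tubule predominates. The series' design text calls the 3 samples of a group biological replicates.

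Glycine conjugation takes place in mitochondria of liver and kidney in 2 steps. An Acsm enzyme first couples the acid to coenzyme A at the cost of ATP, and a glycine N-acyltransferase then moves the acyl group to glycine. Benzoic acid leaves the body as hippuric acid by this route, and the proximal tubule both forms and secretes such conjugates. o-Anthranilic acid is an amino derivative of benzoic acid. Shmt1 converts serine to glycine, and Gldc is the decarboxylase of the glycine cleavage system.

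Values are log2 processed signals minus the array's own 75th percentile, so 0 is the brightness that 25% of probes exceed. A difference of 1 on this scale is a doubling. Levels are compared between arrays for the same probe and not between probes. Between 63.7% and 69.3% of probes were well above background on each array, and no spot was saturated. The 7 proximal tubule markers on the array were all measured, and their mean stood at 0.08, -0.07 and -0.01 on vehicle replicates 1, 2 and 3 and at 0.01, 0.03 and -0.02 on treated replicates 1, 2 and 3, relative to the vehicle mean. The inner medulla markers Slc14a2 and Aqp4 were also measured. No marker of any of the 13 cell type lists passed the limma threshold. Without adjustment 2 of 3 fibroblast, 1 of 2 measured erythrocyte and 1 of 2 inner medulla markers had a limma p under 0.05. All of these were higher in treated animals. No other listed marker had such a p, and 8.30% of all features did. The part of these markers in the results was not tested. By the slide barcodes of the scanner output, the other 5 arrays shared a slide and treated replicate 2 was on another.

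Treated and vehicle animals were compared to ask whether the genes of this route differed with exposure. None of the 7 genes passed the threshold of limma at an adjusted p of 0.05, where 0.00% of 30709 features did. Without adjustment 0 of 7 had a p under 0.05, where 8.30% of features did (3.46% higher and 4.84% lower in treated animals), and in 0 of 7 were the groups without overlap, where 14.7% of features were. In the fit of every probe 0 of 11 member probes had a p under 0.05, where 8.47% of probes did, and in 0 of 11 were the groups without overlap, where 15.0% of probes were. Of the 7 log2 fold changes, treated minus vehicle, 3 were above 0 and 4 below. They ran from -0.31 to 0.17 with a median of -0.035, beside a median of -0.0065 over all features. The median was 0.13 without treated replicate 2, where none of the 7 passed the limma threshold and 0.00977% of features did. In that fit 2 of 7, Acsm2 and Glyatl2, had an unadjusted p under 0.05, where 7.40% of features did. In that animal Acsm5, Acsm3, Acsm1 and 1 probe of Glyatl2 had their lowest signal, and it is described after the genes.

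Acsm2, a kidney and liver synthetase that activates benzoic acid and related aromatic acids, gave 7.82, 7.64 and 7.71 in vehicle animals. On the treated arrays it stood at 7.41, 7.78 and 7.38. Treated replicates 1 and 3 were below every vehicle array, and treated replicate 2 lay within the vehicle range. The log2 fold change was -0.20 ± 0.13 (SE), a 1.15-fold lower mean, with an adjusted p of 0.709 from limma. Its 95% interval ran from -0.51 to 0.11.

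Acsm1, which acts on butyrate and medium-chain acids, had 2 probes with a like pattern. The probe used in the test gave 2.27, 2.31 and 2.67 in vehicle animals and 2.44, 1.89 and 2.80 in treated animals. The treated values bracketed the vehicle values, with treated replicate 2 lowest and treated replicate 3 highest of all 6. The log2 fold change was -0.03 ± 0.25 (SE). The other probe stood at -2.25, -2.34 and -1.83 in vehicle and at -2.14, -2.69 and -1.82 in treated animals, with the same array lowest.

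Acsm3, a medium-chain synthetase first described as the SA gene of hypertensive rats, varied the most between vehicle animals. Its probe stood at 2.94, 3.70 and 4.44 on vehicle replicates 1, 2 and 3, with an SD of 0.75. On the treated arrays it stood at 4.52, 2.56 and 4.50. The groups overlapped widely, and the lowest and the highest of the 6 values both came from treated animals. The log2 fold change of 0.16 ± 0.63 (SE) had a 95% interval from -1.38 to 1.71, so a change of more than 2-fold in either direction was within the error. It was 0.81 without treated replicate 2 and -0.21 without vehicle replicate 1.

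Acsm5, a mitochondrial synthetase of the same family, had 3 probes that disagreed. Probe A_44_P992673 gave 0.32, 0.26 and 0.51 in vehicle animals and 1.23, -4.02 and 1.41 in treated animals. As processed signal this was 1147, 1199 and 1238 in vehicle and 2187, 60.14 and 2585 in treated animals. Treated replicates 1 and 3 were thus above every vehicle animal, while treated replicate 2 was 19.4-fold below the lowest of the other 5 arrays.

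Probe A_44_P212813 of Acsm5 showed the same order with smaller steps. It stood at -1.73, -1.89 and -1.69 in vehicle and at -1.34, -3.83 and -0.88 in treated animals. Treated replicate 2 was 3.85-fold below the next array on this probe. The third probe, A_64_P151353, which was the brightest of the 3 and so represented the gene in the test, stood at 0.88, 0.83 and 0.90 in vehicle and at 0.52, 0.26 and 0.90 in treated animals. Treated replicate 2 was again lowest, but treated replicate 1 was below every vehicle array and treated replicate 3 level with the highest of them. The log2 fold changes of the 3 probes were -0.82 ± 1.44, -0.25 ± 0.74 and -0.31 ± 0.16 (SE), in the order given. The probe used in the test had an adjusted p of 0.664 from limma.

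Among the acyltransferases, Glyat, the main enzyme that forms hippuric acid, was the steadiest. Vehicle animals gave 6.61, 6.35 and 6.66, and treated animals gave 6.45, 6.44 and 6.38. All 3 treated values lay inside the vehicle range. The log2 fold change was -0.12 ± 0.10 (SE), with a 95% interval from -0.37 to 0.13 and an adjusted p of 0.776 from limma. The interval excludes a doubling and a halving of the Glyat signal at this sample size.

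Glyatl1, a related acyltransferase with a preference for glutamine in other species, stood at -1.75, -2.47 and -2.03 in vehicle and at -1.92, -2.20 and -1.99 in treated animals. The treated values again lay inside the vehicle range. Its log2 fold change was 0.05 ± 0.19 (SE), and it was -0.15 without vehicle replicate 2 and 0.21 without vehicle replicate 1.

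Glyatl2, also known as Keg1 for its expression in kidney, had 2 probes. The probe used in the test stood at 4.06, 3.72 and 4.11 in vehicle and at 4.34, 3.72 and 4.32 in treated animals. The other probe stood at 2.36, 2.11 and 2.40 in vehicle and at 2.69, 1.86 and 2.74 in treated animals. On both probes treated replicates 1 and 3 were above every vehicle animal, and treated replicate 2 was beside or below the lowest vehicle animal. The log2 fold changes were 0.17 ± 0.20 and 0.14 ± 0.25 (SE).

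**Figure D1:**
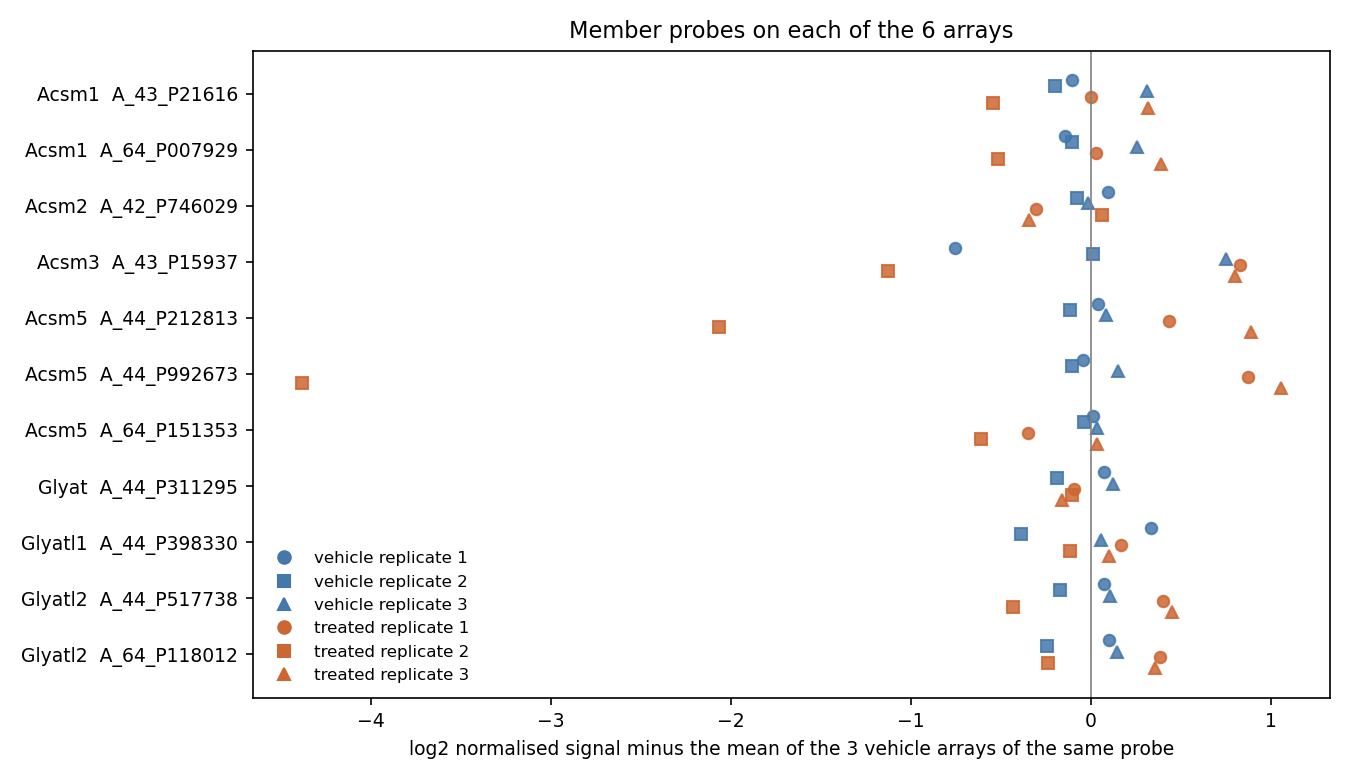
Log2 normalised signal of each of the 11 member probes (rows) on the 6 arrays, as the difference from the mean of the 3 vehicle arrays of the same probe. Blue points are vehicle and orange points treated animals, with the shape giving the replicate; the orange square of treated replicate 2 is the lowest point in 7 of the 11 rows, most of all for Acsm5 probe A_44_P992673.

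Treated replicate 2 was the lowest of the 6 arrays on 7 of the 11 member probes, where it was lowest on 16.5% of all 41551 probes kept. The 7 probes belong to 4 genes, so they are not separate cases. On Acsm5 probe A_44_P992673 this array lay 4.28 log2 units below the next, and over all probes it lay more than 2 units below the other 5 arrays on 10 probes, or 0.0241%. Between 7 and 17 probes per array lay more than 2 units below all others. More than 4 units below all others lay 3 probes on treated replicate 2, 5 on treated replicate 1, 3 on treated replicate 3, 2 on vehicle replicate 1 and 0 on vehicle replicates 2 and 3. Acsm2 and Glyat were not low in this animal. Its proximal tubule marker mean, given above, was within the vehicle range, and its mean over the 6 straight proximal tubule markers was 0.62 relative to the vehicle mean, against 0.59 and 0.15 on treated replicates 1 and 3 and 0.42, -0.30 and -0.12 on the vehicle arrays. Slc22a7 and Slc7a13 carried that mean: Slc22a7 stood at -0.26 on treated replicate 2 against a vehicle mean of -2.18, and Slc7a13 at 6.79 against 6.36, 4.42 and 4.83 on the vehicle arrays. Cyp7b1, of the same list, was lowest on that array, at -1.03 against a vehicle mean of -0.68. In RNA of whole tissue, fewer cells of a type and less RNA per cell cannot be told apart. Since no other array of this series was on that slide, slide and animal cannot be told apart either.

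Without treated replicate 2 the treated animals had higher values than vehicle animals on 8 of the 11 probes, against 4 of 11 with it. In this comparison of 2 treated with 3 vehicle animals, 5 of 11 probes had an unadjusted p under 0.05 in the limma fit of every probe, where 7.62% of all probes did. These probes belong to Acsm5, Glyatl2 and Acsm2 alone, so they are not separate cases. In 6 of 11 the groups did not overlap, where 25.2% of all probes did not. None of the 11 passed adjustment, where 0.00963% of probes did. Acsm5 stood at 0.96 ± 0.12 and 0.66 ± 0.16 (SE) on probes A_44_P992673 and A_44_P212813, with limma adjusted p of 0.298 and 0.519, and at -0.16 ± 0.14 on probe A_64_P151353. Glyatl2 stood at 0.37 ± 0.14 on the probe used in the test and at 0.43 ± 0.12 on the other. Acsm2 stood at -0.33 ± 0.09. Glyat stood at -0.13 ± 0.12. Other arrays moved Glyat more: it was -0.22 ± 0.08 without vehicle replicate 2, with a limma adjusted p of 0.548, and -0.06 ± 0.10 without vehicle replicate 3. Attention was drawn to this array by its values on these same probes. The figures without it therefore describe the other 5 animals and are not a test of the exposure.

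**Figure D2:**
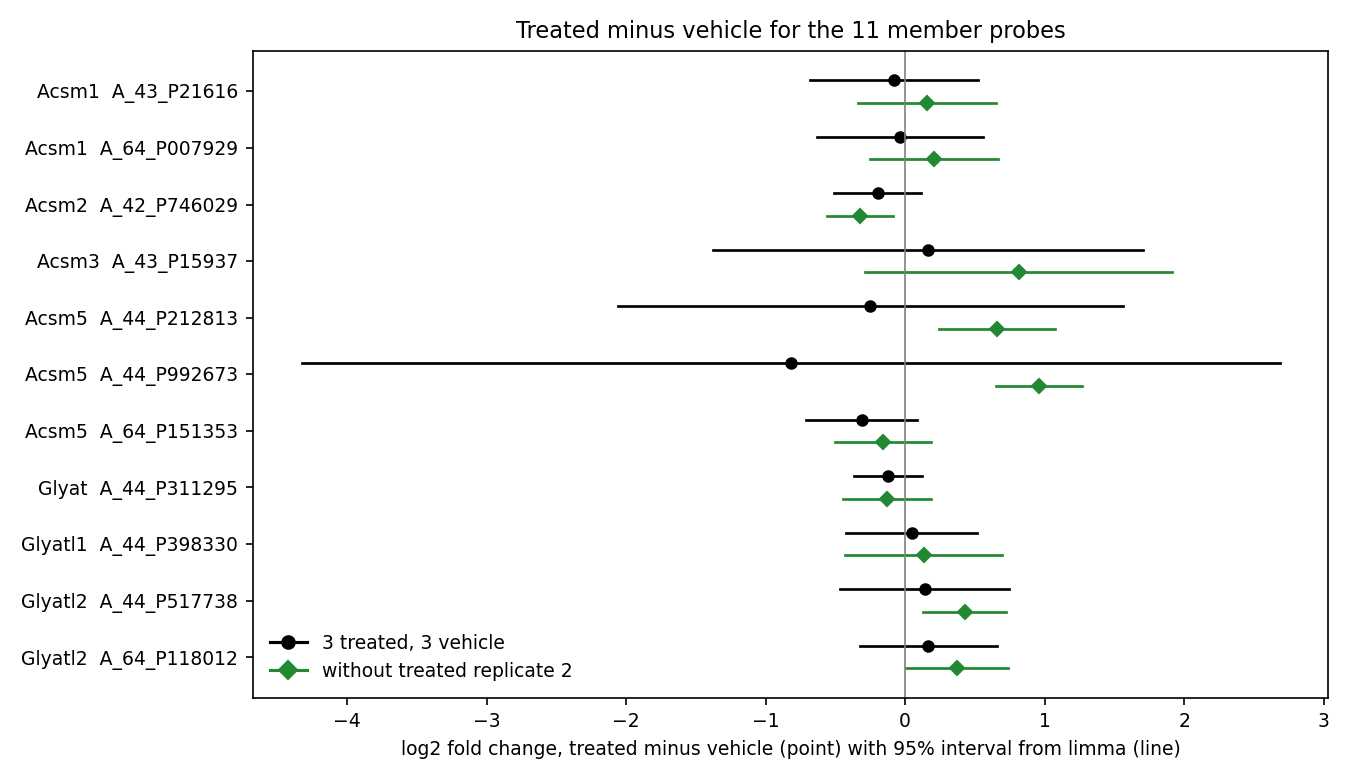
Log2 fold change, treated minus vehicle, of each member probe (point) with its 95% interval from limma (line). Black gives all 6 arrays and green the fit without treated replicate 2; Acsm5 probe A_44_P992673 moves from -0.82 to 0.96, while Glyat stays at -0.12 and -0.13.

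The members with a probe lie in 2 runs of neighbouring genes on chromosome 1. In the reference order Acsm5, Acsm2, RGD1559600, Acsm1, Acsm4, Thumpd1, Eri2 and Acsm3 follow each other, with the spans of Acsm3 and Eri2 overlapping, and Glyatl1, Glyat and Glyatl2 lie in a second run, with Or5b95 and a further gene between Glyat and Glyatl2. The protein-coding genes from 3 before to 3 after each run were examined after the member values were known. Probes were found for 13 of 14 genes of the Acsm stretch and for 9 of 11 of the Glyat stretch.

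Next to Acsm1, RGD1559600 stood at -0.35, -0.84 and -0.31 in vehicle and at -0.33, -2.42 and -0.44 in treated animals. Treated replicate 2 was thus 2.99-fold below the lowest of the other 5 arrays on this probe. The array stood apart in the same direction on Acsm5 probes A_44_P992673 and A_44_P212813, but by only 1.20-fold on A_64_P151353, the Acsm5 probe used in the test. Acsm2, which lies between Acsm5 and RGD1559600, stood at 0.06 relative to the vehicle mean on treated replicate 2. Thumpd1, an RNA-binding protein gene between Acsm4 and Acsm3, and Eri2, an exonuclease gene, showed no such step, with every kept probe of both within 0.33 of the vehicle mean on all arrays. Umod, which encodes uromodulin of the thick ascending limb and lies before Acsm5, stood at 0.06 and -0.005 relative to the vehicle mean in treated replicate 2 on its 2 probes.

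A different split was seen beside the Glyat run. Fam111a, which encodes a protease linked to DNA replication, lies before Glyatl1 and had 3 probes. Probe A_44_P899616 stood at 0.95, 0.78 and 0.93 in vehicle and at -5.77, 1.64 and -6.06 in treated animals, and on the other 2 probes treated replicates 1 and 3 were also far below the other 4 arrays. Treated replicates 1 and 3 were not well above background on any Fam111a probe, and treated replicate 2 was the highest of the 6 arrays. Fam111a did not pass, with an adjusted p of 0.639 from limma. The fitted log2 fold change of -4.28 ± 2.04 (SE) rests on those 2 arrays without a signal well above background, so its size is not measured. Gp2, a glycoprotein gene beside Umod, was likewise lower on treated replicates 1 and 3, at -1.21 and -0.86, than on the other 4 arrays, at 0.63 to 1.51.

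**Figure D3:**
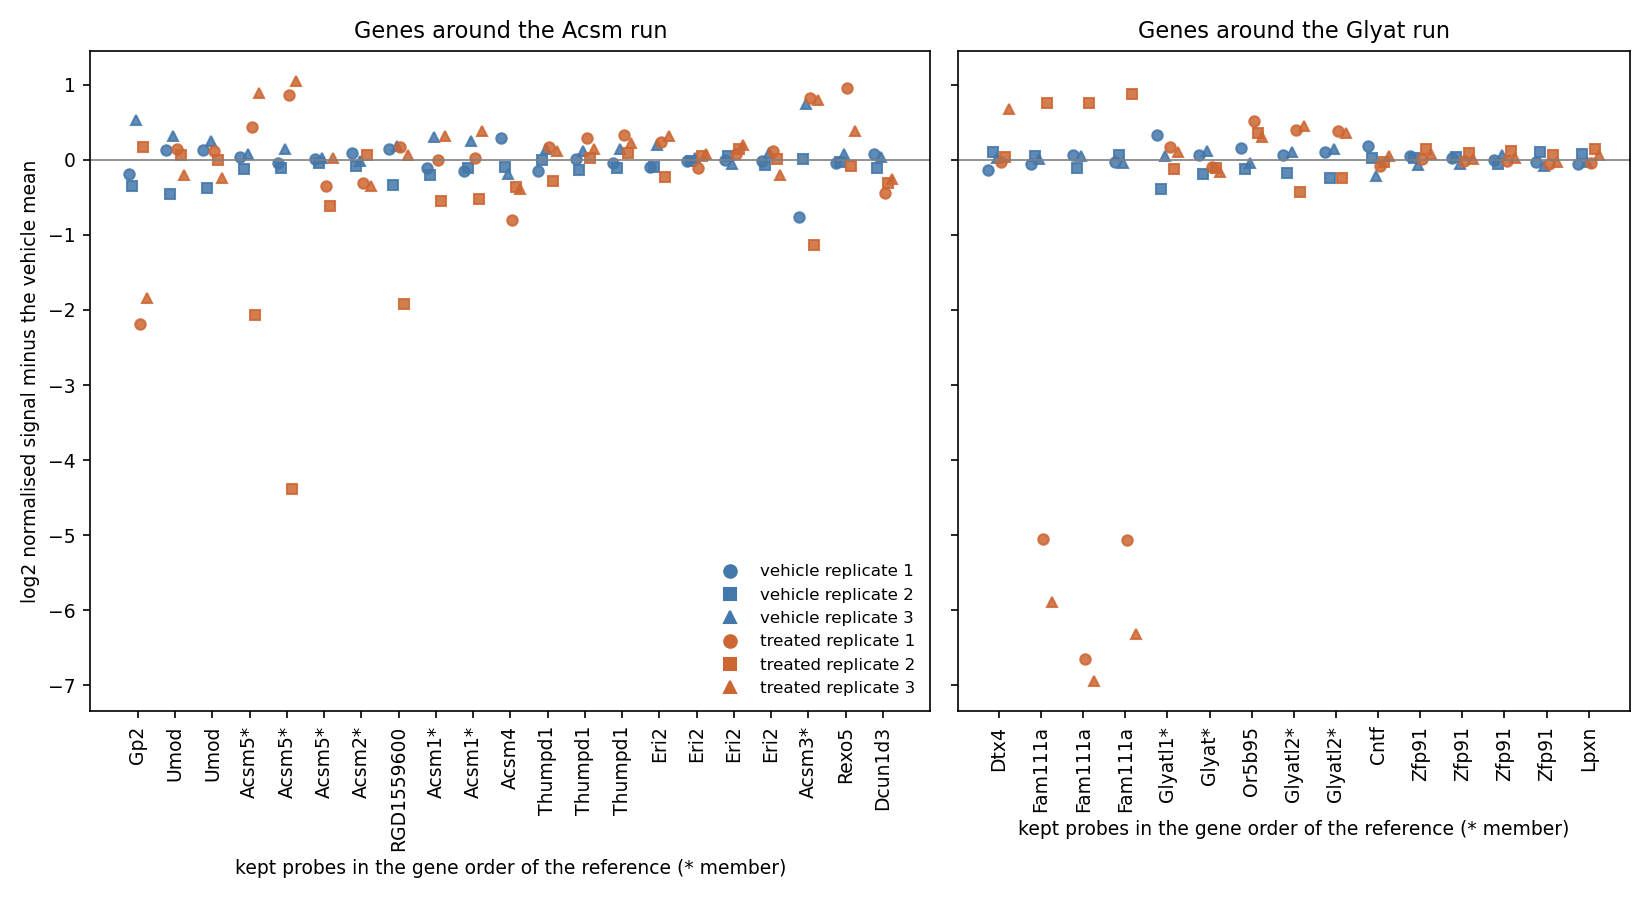
Log2 normalised signal minus the vehicle mean of the same probe for the kept probes of genes around the Acsm run (left) and the Glyat run (right), in the gene order of the reference with even spacing; asterisks mark members. Treated replicate 2 (orange squares) is low for Acsm5 and RGD1559600, and treated replicates 1 and 3 (orange circles and triangles) are low for Gp2 and Fam111a.

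The stretches upstream of the 4 Acsm members are shown because these neighbours share a family but not their pattern over the animals: Acsm5, Acsm1 and Acsm3 were lowest in treated replicate 2, and Acsm2 was not. Each is the 250 bases before the start of the gene in RefSeq's GRCr8 table, read 5′ to 3′ on the plus strand. Capitals mark matches on either strand to TATAAA (the TATA box), CCAAT (the CCAAT box), GTTAAT (part of the recognition sequence of HNF1) and AGGTCA (the core bound by nuclear receptors such as HNF4A and PPARA). The stretch of Acsm5 lies at chr1:183302259-183302508, that of Acsm2 at chr1:183347455-183347704, that of Acsm1 at chr1:183416802-183417051 and that of Acsm3 at chr1:183564402-183564651.
Acsm5: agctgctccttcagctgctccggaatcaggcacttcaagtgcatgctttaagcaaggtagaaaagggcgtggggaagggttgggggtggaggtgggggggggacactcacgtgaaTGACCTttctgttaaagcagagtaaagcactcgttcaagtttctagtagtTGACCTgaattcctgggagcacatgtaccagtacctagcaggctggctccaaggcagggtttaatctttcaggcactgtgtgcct
Acsm2: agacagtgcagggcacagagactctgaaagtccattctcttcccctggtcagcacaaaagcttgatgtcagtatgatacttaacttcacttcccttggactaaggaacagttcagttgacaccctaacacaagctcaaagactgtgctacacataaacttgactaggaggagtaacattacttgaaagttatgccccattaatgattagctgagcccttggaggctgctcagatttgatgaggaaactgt
Acsm1: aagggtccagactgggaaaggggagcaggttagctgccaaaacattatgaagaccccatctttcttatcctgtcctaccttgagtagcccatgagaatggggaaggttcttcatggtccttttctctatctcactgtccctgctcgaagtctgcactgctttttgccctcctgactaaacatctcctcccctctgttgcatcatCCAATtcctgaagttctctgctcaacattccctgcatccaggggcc
Acsm3: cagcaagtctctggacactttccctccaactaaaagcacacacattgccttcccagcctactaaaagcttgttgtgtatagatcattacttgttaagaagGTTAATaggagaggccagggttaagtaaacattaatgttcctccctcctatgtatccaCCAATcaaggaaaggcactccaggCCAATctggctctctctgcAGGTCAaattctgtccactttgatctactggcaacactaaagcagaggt
The AGGTCA core was present in the stretches of Acsm5, at positions -135 and -85 from the start, and of Acsm3, at -49, and in 14.1% of 33469 upstream stretches of this length. GTTAAT was present at -150 in that of Acsm3 and in 6.45% of all. CCAAT was present in those of Acsm3, at -92 and -68, and Acsm1, at -46, and in 34.0% of all. None of the 4 motifs was present in that of Acsm2, and TATAAA was in none of the 4, with 12.9% of all stretches holding it. Whether these motifs bear on the pattern over the animals was not tested. Upstream stretches were available for 8 of the 9 members, and Glyat is not among them.

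Genes around the route were taken from 7 lists of 84 genes, of which 74 were measured. None of the 74 passed the limma threshold over all features. Without adjustment 13 of 74, or 17.6%, had a p under 0.05, 4 higher and 9 lower in treated animals, where 8.30% of all features did. The count was 8, or 10.8%, without treated replicate 1, where 6.78% of all features had such a p. With each other array left out it lay between 11 and 15, where 6.92% to 8.94% of all features did. The median log2 fold change was -0.04. These lists were chosen with earlier results of these data known, so the shares only describe them and are no independent support.

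The closest relatives of the members differed in direction, and neither passed the threshold. Glyatl3, a further acyltransferase, stood at -5.29, -5.52 and -5.37 in vehicle and at -4.54, -5.03 and -4.61 in treated animals, with no overlap. The log2 fold change of 0.66 ± 0.15 (SE) had a limma adjusted p of 0.467. The signal was dim, well above background on 2 of 3 vehicle arrays, and normexp correction of the background gave 0.22. Acsm4, a synthetase named for its expression in olfactory mucosa, stood at -3.97, -4.36 and -4.45 in vehicle and at -5.05, -4.62 and -4.64 in treated animals. Its log2 fold change was -0.52 ± 0.18, and -0.23 after normexp correction.

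Bile acids are conjugated to glycine or taurine by a parallel pair of enzymes, Slc27a5 for activation and Baat for transfer. Slc27a5 stood at 1.28, 1.13 and -0.31 in vehicle and at -5.39, 0.68 and -4.56 in treated animals. Treated replicates 1 and 3 were the low ones, as for Fam111a, and treated replicate 2 lay inside the vehicle range. On the second Slc27a5 probe treated replicates 1 and 3 were again the low ones, at -7.14, -1.90 and -7.28 in treated animals and -2.82 to -1.29 in vehicle animals. Only 2 of 3 treated arrays were well above background on the first probe and 1 of 3 on the second, so the size of the difference is not well measured. The fitted log2 fold change was -3.79 ± 1.59 (SE) with an adjusted p of 0.601 from limma, and it ranged from -5.68 without treated replicate 2 to -2.64 without treated replicate 1. Baat stood at 0.96, 0.46 and 0.98 in vehicle and at 0.41, 0.52 and -0.10 in treated animals, with a log2 fold change of -0.52 ± 0.22. Of the 14 other acyl-CoA synthetases measured, 1 had an unadjusted p under 0.05, where 8.30% of all features did. It was Acsl1, a long-chain synthetase, at -0.31 ± 0.09 and lower on every treated than on any vehicle array.

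In glycine cleavage and folate metabolism, 1 of 14 genes was higher and 1 lower at an unadjusted p under 0.05. The shares over all features were 3.46% and 4.84%. Aldh1l1, which oxidises formyl tetrahydrofolate, stood at 4.23, 4.21 and 4.33 in vehicle and at 4.57, 4.61 and 4.70 in treated animals, a log2 fold change of 0.37 ± 0.08 (SE) with an adjusted p of 0.456 from limma. Mthfd1l, the mitochondrial formate-producing enzyme, stood at -0.69 ± 0.11, with 1 of 3 treated arrays well above background, and at -0.15 after normexp correction. Shmt2, the mitochondrial counterpart of Shmt1, and the cleavage genes Amt, Gcsh and Dld had log2 fold changes of -0.17, 0.07, -0.03 and 0.06.

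In serine and glycine synthesis and use, 0 of 15 genes were higher and 2 lower at an unadjusted p under 0.05. Among all features 3.46% were higher and 4.84% lower. The 2 lower genes were Psat1 and Phgdh, which make serine, the precursor of glycine, from a glycolytic intermediate. Psat1 stood at 5.88, 5.89 and 5.82 in vehicle and at 5.60, 5.64 and 5.57 in treated animals. Phgdh stood at 6.75, 6.95 and 6.97 in vehicle and at 6.60, 6.70 and 6.64 in treated animals. Both were lower on every treated array, by log2 fold changes of -0.26 ± 0.07 and -0.24 ± 0.09 (SE), with limma adjusted p of 0.479 and 0.572. Psat1 stood at -0.14 with the mean of its probes. The third enzyme of that route, Psph, stood at -0.10 ± 0.11.

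Of 5 measured glycine transport genes, 1 was higher and 1 lower at an unadjusted p under 0.05, against 3.46% and 4.84% of all features. Slc6a18, a proximal tubule carrier that reabsorbs glycine and other neutral amino acids, stood at 4.70, 4.14 and 4.38 in vehicle and at 4.88, 5.06 and 4.74 in treated animals. Its log2 fold change was 0.49 ± 0.16 (SE), with an adjusted p of 0.53 from limma, and its other 2 probes stood at 0.47 and 0.51. Slc6a9, the glycine transporter GLYT1, stood at -0.64 ± 0.18 and at -0.27 after normexp correction. Its other 2 kept probes stood at 0.24 and -0.16, so the probes of this gene disagreed. The probe at 0.24 was well above background on only 2 of 3 vehicle and 1 of 3 treated arrays, so its sign is not well measured.

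Of 13 measured genes of coenzyme A synthesis and breakdown, 1 was higher and 1 lower at an unadjusted p under 0.05. By comparison, 3.46% of all features were higher and 4.84% lower. Slc5a6, which takes up the precursor pantothenate, stood at 3.21, 3.06 and 3.00 in vehicle and at 3.38, 3.40 and 3.33 in treated animals, a log2 fold change of 0.28 ± 0.08 (SE). Vnn1, a pantetheinase of the route that breaks the cofactor down, stood at 4.69, 4.45 and 4.60 in vehicle animals. In treated animals it stood at 4.23, 4.39 and 4.12, a log2 fold change of -0.33 ± 0.11. Among 10 acyl-CoA thioesterases, which release free acids from coenzyme A, 0 were higher and 2 lower. They were Acot12 at -0.35 ± 0.12 and Acot1 at -0.20 ± 0.08. None of these 4 genes passed limma adjustment, with adjusted p from 0.501 to 0.585.

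**Figure D4:**
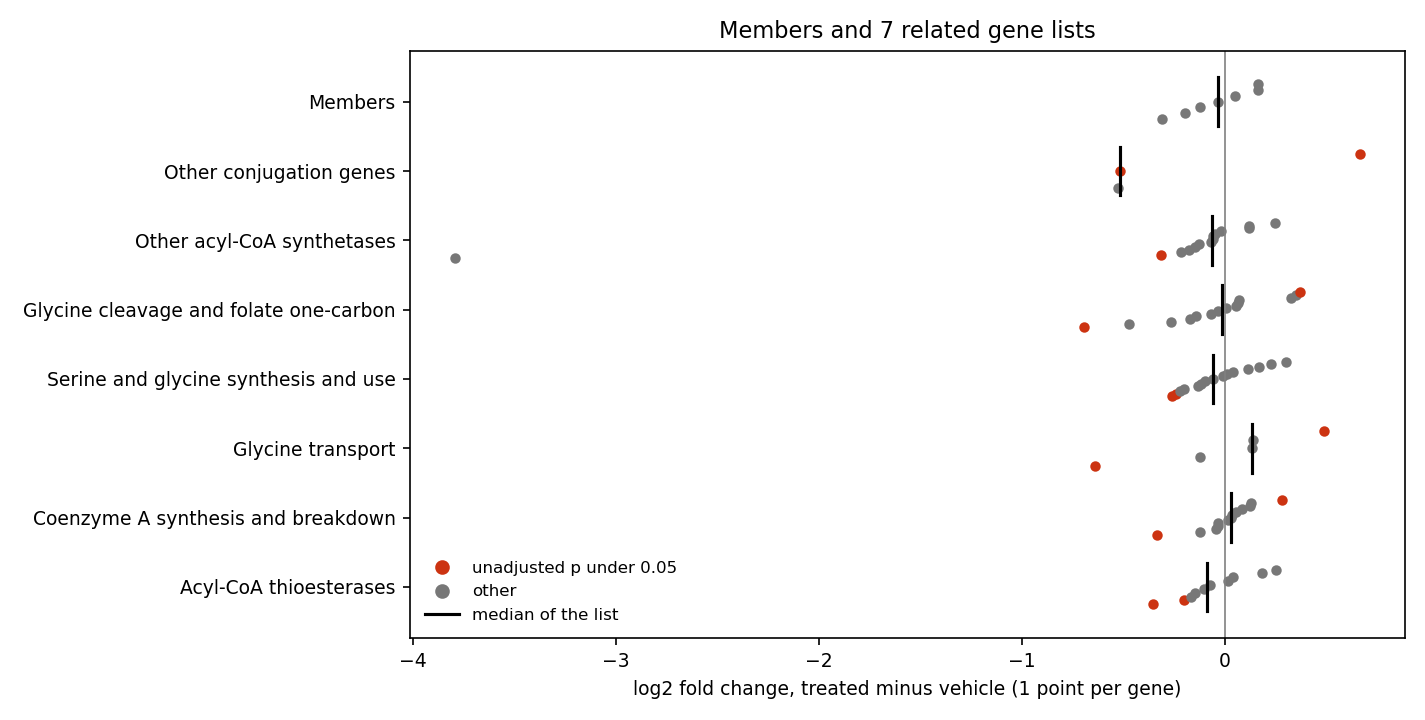
Log2 fold change, treated minus vehicle, of each measured gene (points) among the members and the 7 related lists, with the list median as a black bar. Red points have an unadjusted p under 0.05 in limma; the members hold 0 of 7 such points and the other lists 13 of 74, and the point near -3.79 is Slc27a5.

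The named genes whose values followed Glyat most closely over the 6 arrays were Leprot, Fbp1 and Ceacam9, with Pearson's r of 0.997, 0.9965 and 0.989 as a measure of likeness. Fbp1 encodes fructose-1,6-bisphosphatase, a gluconeogenic enzyme of the proximal tubule. Those most like Acsm2 were Slc25a54, Klhdc2 and P3h3, each at 0.99. Over 11906 named genes, 37 had an r above 0.95 with Glyat and 25 with Acsm2. With 6 arrays and this many genes, values this high can occur by coincidence. Shared regulation was not tested.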

How the data were processed

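Renal cortex RNA of 3 vehicle and 3 treated rats was measured on 1 Cy3 array each. The submitters' processing notes name Agilent Feature Extraction 10.7, with which the authors made the spot intensity values. The processed signal column was used, named so per the file headers. The values the authors deposited as a table are a ratio: set against the scanner output, they equal processed signal divided by the array's 75th percentile. Its column medians were 0.104 to 0.107. Its replicate numbers were shifted within each group against the scanner files, whose numbering is used here, and which numbering holds is unknown.

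Control spots, 84 external RNA controls and 47 outlier-flagged probes were left out of 62976 spots. Of 61526 probes used, 27435 were named through RefSeq accessions. Signals were put on the log2 scale and the array's 75th percentile over non-control probes subtracted. A probe was kept if at least 3 of 6 arrays had it well above background, and the kept probe with the highest mean represented a gene. The group difference was fitted in limma 3.58.1 (R 4.3.3), with Benjamini-Hochberg adjustment over all 30709 features at 0.05. For single probes the same fit was run on every kept probe. The fit was tested on simulated data, drawn independently for each array from a normal distribution. That test checked the recovery of added differences, and it did not model a slide or an array that stands apart. The number of arrays limits the precision, and the median standard error was 0.11.

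The members and lists were chosen with earlier results of these data known. Named genes were every member, the list genes with the smallest unadjusted p (2 per list), and the 3 genes most like Glyat and Acsm2. Baat, Shmt2, Amt, Gcsh, Dld, Psph, RGD1559600, Thumpd1, Eri2, Umod, Fam111a and Gp2 were named after their values were seen. Alternatives were normexp background correction on median signals (offset 50), scaling, filters, probe rules and variance models, the authors' values, the slide or replicate number as a block, and each array left out.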

Additional observations from a re-analysis of the deposited data

How the results depend on the processing

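None of the 7 members passed the threshold under any of 18 alternatives. Over all features, limma called 0 with the main settings, 5 after normexp background correction, 5 with trend and robust settings in eBayes, 2 when probes of a gene were averaged, 1 with a filter of all 6 arrays and 3 with the slide as a block, and between 0 and 3 with each array left out. The median of the members was 0.13 with the slide as a block and ranged from -0.15 to 0.13 with each array left out. Of 126 member values under these alternatives 8 changed sign. All but 1 of the 8 came from leaving out an array. The other was Acsm1, at 0.21 under the slide block. That block removes treated replicate 2, the only array of this series on its slide. With each array left out Acsm1 ranged from -0.25 to 0.21, Acsm3 from -0.21 to 0.81, Glyatl1 from -0.15 to 0.21, Acsm1 probe A_43_P21616 from -0.27 to 0.16, Acsm5 probe A_44_P992673 from -1.76 to 0.96, Acsm5 probe A_44_P212813 from -0.82 to 0.66 and Glyatl2 probe A_44_P517738 from -0.016 to 0.43. The fits of single probes without an array were added after the data were seen. The cause of the changes was not tested. Acsm2, Glyat, the tested probe of Acsm5 and that of Glyatl2 kept their sign under all 18, but with each array left out Acsm2 ranged from -0.33 to -0.12, Glyat from -0.22 to -0.06, Acsm5 from -0.48 to -0.16 and Glyatl2 from 0.04 to 0.37. Same-numbered vehicle and treated animals did not deviate together (correlations of 0.02, -0.04 and -0.02 over features), and with the replicate number as a block 0 features were called and the median of the members was -0.035. The log2 fold changes of Glyatl3, Acsm4, Mthfd1l and Slc6a9 were nearer 0 after normexp correction, which adds an offset of 50 and so by its construction draws dim probes toward 0. Signal over background limits Glyatl3, Mthfd1l, Slc27a5, Fam111a and the Slc6a9 probe at 0.24, which were not well above it on every array.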
